A study of Mus musculus with 2 samples.

Results

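The proteasome genes were taken from 1 table of normalised gene counts by gene symbol. The rule kept rows whose mouse symbol starts with Psma, Psmb, Psmc, Psmd, Psme, Psmf or Psmg followed by a digit, and left out the immunoproteasome genes Psmb8, Psmb9 and Psmb10 and pseudogenes. Of 18724 rows, 49 matched the pattern, 3 of these were the immunoproteasome genes, and none was a pseudogene, which left 46 genes on 16 chromosomes. The rule used no measured value, though the set was chosen with earlier results of these data known. All 46 genes passed the minimum of a mean normalised count of 10 that was used to call a gene measured, as did 17183 of the 18724 rows. The label holds for all but Psmc3ip, which matches the pattern by its name but encodes a partner of the meiotic recombination machinery. Of the rest, Psmb11 encodes a catalytic subunit known from the thymus, and Psme2b is a near-identical copy of Psme2. Psma8, the testis form of an alpha subunit, had no row in the table.

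The RNA came from mouse prostate, from luminal cells that flow cytometry had divided into cells that had kept a GFP label carried on histone 2B and cells that had not. Both groups were prostate cells of mice aged 18 weeks, and each group was 1 library. Reads in genes of the table came to 50689229 for the label-retaining library and to 48334265 for the non-retaining one. The strain, the transgene that drives the histone label, the time allowed for dilution, the sort markers and the number of animals pooled are not stated by the sources used here. The study's title describes label-retaining luminal cells as progenitors that withstand castration, and the comparison asks how their RNA differs from that of other luminal cells. As each group is a single library, the differences have no replicate check and no test between groups was made. Each interval below is an exact (Clopper-Pearson) 95% interval that covers counting error only, and each ratio compares these libraries, not the conditions. In every pair of values the label-retaining library comes first.

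The proteasome degrades proteins that carry ubiquitin chains. Its 20S core is a barrel of stacked rings, in which alpha subunits form the gate and beta subunits hold the proteolytic sites. The 19S particle caps the barrel: its base unfolds substrates with a ring of ATPases, and its lid removes ubiquitin. Dedicated chaperones assemble both, and other activators can replace the 19S particle. In secretory cells such as those of the prostate lumen the proteasome also removes misfolded proteins that are sent back from the endoplasmic reticulum (ER). The transcription factor NRF1, encoded by Nfe2l1, is known to raise proteasome genes together when proteasome activity is low, through antioxidant response elements in their promoters.

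The libraries differed in other cell types' RNA. Luminal markers made up 5.32% of reads in the label-retaining library against 1.55%, and 5 of 11 were called higher at 2-fold and none lower. All 6 basal markers were lower by at least 2-fold among label-retaining cells, where they made up 0.0202% of reads against 0.430%. Of 8 leukocyte markers 5 were lower and 2, Cd52 and Lyz2, higher by the same measure (0.0154% against 0.0338% of reads). Cd52 alone gave 6818 of the 7831 leukocyte marker reads in the label-retaining library and 2160 of 16334 in the other. All 5 smooth muscle markers were lower (0.00296% against 0.0491%). Of 4 fibroblast markers 2 were lower and 1 higher (0.0249% against 0.203%). Dcn alone gave 4930 of the 12627 fibroblast marker reads in the label-retaining library and 92262 of 98345 in the other. The collagen genes of this list went the other way, Col1a1 with 1962 reads against 1030 and Col3a1 with 5669 against 3181. All 3 endothelial markers were lower (0.000734% against 0.00218%), and all 4 seminal vesicle genes were higher (0.166% against 0.00174%). No defining marker of these lists was at 0 reads in either library. The part that these other cells have in the ratios of proteasome genes was not tested, and in bulk RNA fewer cells of a type cannot be told apart from less RNA per cell.

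Promoters are shown first for members that hold an antioxidant response element, the motif through which NRF1 and NRF2 are known to act, because the genes of both factors are compared between the libraries further on. RefSeq (GRCm38.p6) gave a promoter for 39 of the 46 members, 42 promoters in all, each covering 250 bases before and 50 after a gene's start. The motif searched was TGACNNNGC on both strands. It occurred in 6 of the 42 promoters (14.3%), those of Psmb5, Psmb6, Psmc6, Psmd9, Psmd12 and Psme4, against 12.4% of all 32851 promoters and 14.1% of those of measured genes. The share in member promoters was thus close to the share elsewhere. The 250 bases before the start are given for the catalytic subunits Psmb5 (chr14:54617996-54618245, minus strand) and Psmb6 (chr11:70525107-70525356, plus strand), 5′ to 3′, with the motif in capitals.

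Psmb5: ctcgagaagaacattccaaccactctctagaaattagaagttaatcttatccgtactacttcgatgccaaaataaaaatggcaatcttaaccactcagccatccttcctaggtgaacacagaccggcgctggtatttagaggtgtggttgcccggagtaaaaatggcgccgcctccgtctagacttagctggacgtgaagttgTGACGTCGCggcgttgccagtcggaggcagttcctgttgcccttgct

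Psmb6: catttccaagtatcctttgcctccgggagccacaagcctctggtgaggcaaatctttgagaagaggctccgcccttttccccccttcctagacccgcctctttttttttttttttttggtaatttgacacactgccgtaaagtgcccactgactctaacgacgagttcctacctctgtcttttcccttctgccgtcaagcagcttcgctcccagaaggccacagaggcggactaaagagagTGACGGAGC

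In the Psmb5 promoter the match began 47 bases before the start, and in that of Psmb6 its last base was the one next to the start. Another motif, the ETS-type CCGGAAG on either strand, was more frequent in member promoters: 16 of 42 (38.1%) held it, against 8.86% of all promoters and 15.4% of those of measured genes. The GC box GGGCGG was in 54.8% of member promoters against 59.2% of those of measured genes, and the CCAAT box in 33.3% against 37.1%. Median GC content was 58.2% in member promoters and 60.0% in those of measured genes. The ETS-type match is shown in capitals for 2 subunits of the 19S base, the scaffold Psmd2 (chr16:20651402-20651651, plus strand) and the ubiquitin receptor Psmd4 (chr3:95042615-95042864, minus strand).

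Psmd2: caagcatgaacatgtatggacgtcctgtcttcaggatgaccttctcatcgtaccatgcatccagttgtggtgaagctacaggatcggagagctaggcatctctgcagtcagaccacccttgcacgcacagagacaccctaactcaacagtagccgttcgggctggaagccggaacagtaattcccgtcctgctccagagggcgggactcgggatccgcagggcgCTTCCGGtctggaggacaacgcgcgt

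Psmd4: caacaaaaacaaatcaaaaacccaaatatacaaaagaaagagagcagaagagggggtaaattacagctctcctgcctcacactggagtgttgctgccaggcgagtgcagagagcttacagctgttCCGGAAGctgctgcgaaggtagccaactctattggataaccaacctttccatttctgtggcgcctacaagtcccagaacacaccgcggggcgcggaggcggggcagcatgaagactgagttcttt

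The match began 26 bases before the start in Psmd2 and 125 bases before it in Psmd4. Neither motif separated members by their ratio between the libraries. The median log2 ratio was 0.19 for the 6 members with the antioxidant response element and 0.11 for the 33 without, and 0.11 for the 15 with the ETS-type motif and 0.13 for the 24 without. A match here describes letters and not a bound site.

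Proteasome genes took nearly the same share of reads in both libraries. Together they took 133686 reads in the label-retaining library, 0.264% of its total (0.262 to 0.265%), and 127165 reads in the non-retaining library, 0.263% (0.262 to 0.265%). On the deposited scaling their summed normalised counts were 133404 and 115677, a log2 ratio of 0.21, against 0.20 for the sum of all measured genes. The median of the 46 log2 ratios on this scaling (label-retaining over non-retaining, from normalised counts with 0.5 added) was 0.17. The median of all 17183 measured genes was -0.0052. A gene was called by size when it was at least 2-fold apart and its interval excluded equality. No member was called higher, against 14.5% of measured genes, and 1 member, Psme2b, was called lower, against 19.4%. At 1.5-fold, 3 members were called higher (24.2% of measured genes), namely Psmb5, Psme4 and Psmg3, and Psme2b alone was called lower (26.8%).

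The ratios also lay close together. The middle 50% of members spanned 0.318 on the log2 scale, against 1.34 for all measured genes, and 40 of 46 members (87.0%) were within 0.5 of equality, against 40.2% of measured genes. Genes of a like level were more widely spread: among 8232 genes in the members' range of mean normalised counts (281 to 5366, the 10th to the 90th percentile of the members), 46.6% were within 0.5 of equality and the middle 50% spanned 1.07. The members' ratios were mostly small and above equality. The interval lay above equality for 28 members (60.9%, against 38.2% of measured genes), below it for 4 (8.70%, against 38.5%), and held it for 14. Among the 8232 genes of a like level these shares were 47.9% above and 39.2% below, and their median ratio was 0.09. The side of equality depends on the scaling: divided by the total of all rows, the median of the members was -0.03 with 20 of 46 above 0, and on a scale set by the keratin genes Krt8 and Krt18 it was -0.61 with 1 of 46 above 0. The distance between the members' median and that of all genes was 0.18 on the deposited scaling and 0.18 and 0.19 on these.

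**Figure D1:**
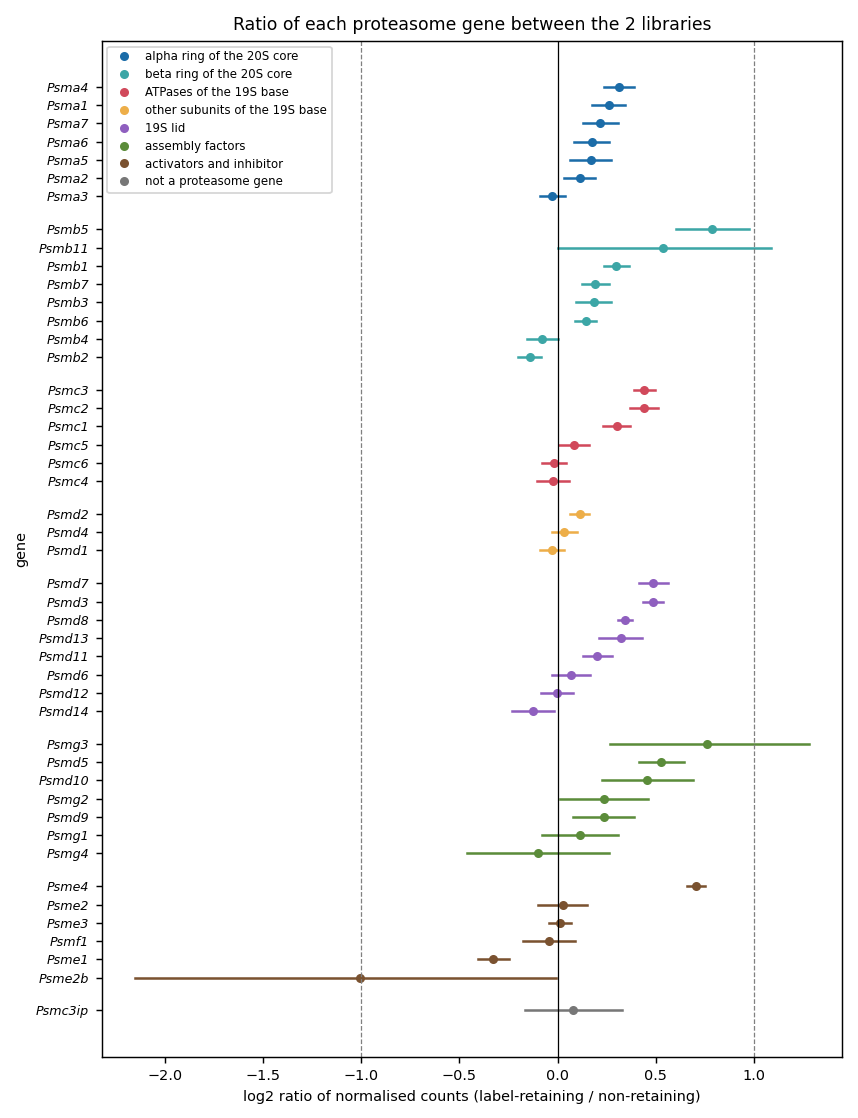
Log2 ratio of the normalised count of each of the 46 genes (label-retaining over non-retaining) by role, with the 95% counting interval as a bar and 2-fold marked by dashed lines. Most points lie within 0.5 of equality, with Psmb5, Psmg3 and Psme4 to the right and Psme2b to the left, on the deposited scaling.

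**Figure D2:**
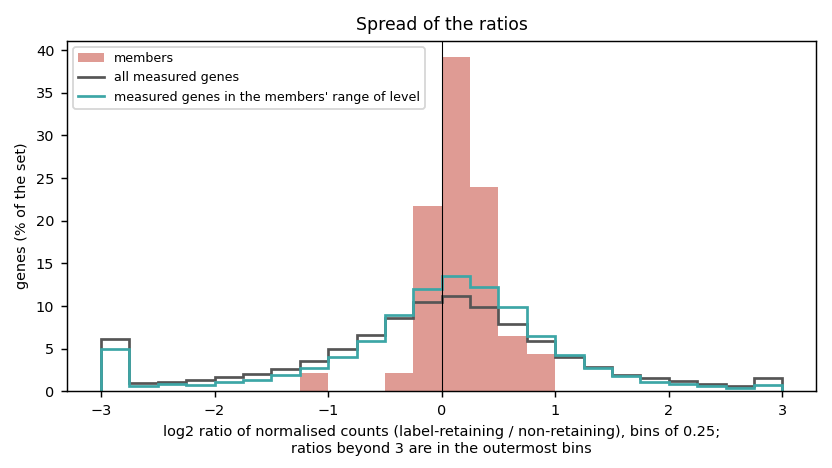
Share of genes (percent) by log2 ratio for the 46 proteasome genes (bars), all 17183 measured genes (dark line) and the 8232 genes in the members' range of level (light line), with ratios beyond 3 in the outermost bins. The proteasome genes are gathered around a median of 0.17, while the middle 50% of all measured genes span 1.34.

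The alpha ring, which forms the gate of the core, was nearly even between the libraries. Its 7 ratios ran from -0.03 for Psma3 to 0.31 for Psma4, with a median of 0.17. Psma3 had 3717 reads in the label-retaining library against 4156, and its interval held equality (-0.09 to 0.04). Psma4 had 2885 and 2546 reads, which put it higher in the label-retaining library by 0.31 (0.24 to 0.39). Psma6 had the highest level of the ring per kilobase of exon, with 1667 and 1478 normalised counts per kilobase and a log2 ratio of 0.17 (0.08 to 0.26). Per kilobase of the longest coding transcript Psma4 was above Psma6 (2471 and 1988 against 1974 and 1750). The other members of the ring were Psma1 (0.26), Psma7 (0.22), Psma5 (0.17) and Psma2 (0.11). No alpha subunit was 1.5-fold apart.

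The beta ring held the core subunit with the widest gap between the libraries. Psmb5, the chymotrypsin-like catalytic subunit (chromosome 14, 54614119 to 54618022, minus strand, GRCm38), had 607 reads in the label-retaining library against 385. The label-retaining library was the higher by a log2 ratio of 0.79 (0.60 to 0.98), the highest of the 46. The other catalytic subunits were nearer to equality. Psmb6, the caspase-like subunit (chromosome 11, 70525367 to 70527858, plus strand), had 5480 and 5445 reads and a log2 ratio of 0.14 (0.09 to 0.20). Psmb7, the trypsin-like subunit, had 3476 and 3339 reads and a ratio of 0.19 (0.12 to 0.26). So of the 3 proteolytic activities of the standard core only the gene for the chymotrypsin-like one passed 1.5-fold. Psmb5 was at 0.59 when scaled on the total of all rows and at 0.0075 on Krt8 and Krt18.

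Reads of Psmb5 are not fully its own. The processed pseudogene Gm3375 on chromosome 7 is 98.9% identical to the whole Psmb5 coding sequence and had 343 and 262 reads, 36.1% and 40.5% of the reads of both rows. Because a short read from either can fit both, how the counting divided them is uncertain. Summed over both rows there were 950 and 647 reads, and the log2 ratio was 0.69 (0.54 to 0.83). The annotated microRNA gene Mir686 also covers 12.1% of the exons of Psmb5 on the same strand.

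The non-catalytic beta subunits lay between -0.14 and 0.30. Psmb2 was the lowest of the ring, with 4198 reads in the label-retaining library against 5078 and a log2 ratio of -0.14 (-0.20 to -0.08). It was also the most abundant beta subunit per kilobase of exon, at 3479 and 3837 normalised counts per kilobase. Psmb1 (0.30) and Psmb3 (0.18) were higher in the label-retaining library, and the interval of Psmb4 (-0.08) held equality by a narrow margin. Psmb11, the thymus subunit, had 69 and 52 reads. Its ratio of 0.54 had a lower bound of 0.0014.

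The ATPases of the 19S base form a ring that assembles in pairs, and members of the ring differed from each other. Psmc2 had 3686 reads in the label-retaining library against 2981, and Psmc3 had 6376 and 5145, so that both had a log2 ratio of 0.44 (0.37 to 0.51 for Psmc2 and 0.39 to 0.50 for Psmc3). Psmc4, the lowest, had 2394 and 2669 reads and a ratio of -0.02 (-0.10 to 0.06). The intervals of Psmc2 and Psmc3 did not overlap that of Psmc4. Psmc6 was at -0.02, Psmc5 at 0.08 and Psmc1 at 0.30. Psmc3 was the most abundant ATPase per kilobase, with 2441 and 1795 normalised counts per kilobase of exon.

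Each pair of ATPases has its own chaperone. The pairs were looked up after the values had been seen, and in 1 of 3 were the chaperone and both partners above equality by their intervals. Psmd5, which binds the pair of Psmc1 and Psmc2, had 1454 reads in the label-retaining library against 1105, a log2 ratio of 0.53 (0.42 to 0.64), and both of its partners were above equality. Psmd10, gankyrin, which binds the pair of Psmc4 and Psmc5, had 348 and 278 reads and a ratio of 0.46 (0.23 to 0.69), while its partners were near equality. Psmd9, which binds the pair of Psmc3 and Psmc6, had 723 and 674 reads and a ratio of 0.23 (0.08 to 0.39). Its partners were not alike, with Psmc3 higher and Psmc6 level. On the opposite strand the gene Gm26745 covers 25.5% of the exons of Psmd9, and the handling of strand in the counting is not stated by the sources used here.

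The large scaffolds of the base and the ubiquitin receptor Psmd4 lay between -0.03 and 0.11. Psmd2, a scaffold that also docks shuttle factors, had 7255 reads in the label-retaining library against 7363, a log2 ratio of 0.11 (0.07 to 0.16). It was the most abundant of the set per kilobase (1793 and 1659 normalised counts per kilobase). Psmd1, the other scaffold, had 4040 and 4524 reads and a ratio of -0.03 (-0.09 to 0.03). Psmd4 had 3683 and 3943 reads and a ratio of 0.04. The intervals of Psmd1 and Psmd4 held equality.

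The lid had the highest median of the core and 19S groups, 0.26 over its 8 genes with a Psm name, and a split between its members. Psmd3 and Psmd7, both structural, had the same ratio: Psmd3 had 7045 reads in the label-retaining library against 5517 (0.49, 0.44 to 0.54), and Psmd7 had 3364 and 2632 (0.49, 0.41 to 0.56). Psmd14, the metalloprotease that removes ubiquitin chains and the partner of Psmd7 in the lid, was the lowest of these 8, with 1274 and 1525 reads and a ratio of -0.13 (-0.23 to -0.02). Psmd7 and Psmd14 are thus on opposite sides of equality on the deposited scaling, and their intervals do not overlap. Psmd8, another structural subunit, had the most reads of the 46 genes, 13234 and 11453, with 4320 and 3408 normalised counts per kilobase of exon and a ratio of 0.34 (0.31 to 0.38). Psmd13 (0.32) and Psmd11 (0.20) were higher in the label-retaining library, and the intervals of Psmd6 (0.07) and Psmd12 (-0.0029) held equality. None of the 17 genes of the 19S particle with a Psm name was 1.5-fold apart.

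The chaperones of the 20S core are encoded by Psmg1 to Psmg4 and had few reads. Psmg3 (chromosome 5, 139823592 to 139826885, minus strand) had 87 reads in the label-retaining library against 56, a log2 ratio of 0.76 (0.27 to 1.28). Its pair partner Psmg4 had 120 and 141 reads and a ratio of -0.10 (-0.46 to 0.26), so that a difference for Psmg4 was not detectable at this depth. The other pair was Psmg1, with 446 and 452 reads (0.11, -0.08 to 0.31), and Psmg2, with 346 and 322 reads (0.24, 0.01 to 0.46). Psmg1 had the highest level of the assembly factors per kilobase, 331 and 306 normalised counts per kilobase of exon. The gene Gm26938, not in the table, holds 59.0% of the Psmg3 coding sequence without a mismatch, so that reads of Psmg3 could have been divided or dropped. All 7 assembly factors together took 0.0070% of reads in the label-retaining library and 0.0063% in the non-retaining library.

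The activators that cap the core in place of the 19S particle were divided. Psme4, which encodes PA200, an activator known from the nucleus and from histone turnover (chromosome 11, 30771726 to 30880361, plus strand), had 9494 reads in the label-retaining library against 6396. The label-retaining library was the higher by 0.70 (0.66 to 0.75), the narrowest interval among the members past 1.5-fold. Psme1, the alpha subunit of PA28, the activator linked to interferon and antigen processing (chromosome 14, 55578123 to 55581529, plus strand), went the other way, with 2255 and 3106 reads and a ratio of -0.33 (-0.41 to -0.25). Psme2, the beta subunit that builds the same ring as Psme1, had 1014 and 1092 reads and a ratio of 0.03 (-0.10 to 0.15). The intervals of the PA28 partners did not overlap. Psme4 kept a positive ratio when scaled on the total of all rows (0.50), and stood at -0.08 when scaled on Krt8 and Krt18, while Psme1 was at -0.53 and -1.11 and on the latter was called lower at 2-fold.

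Psme3, the nuclear PA28 gamma, had 5206 and 5658 reads and a ratio of 0.01 (-0.04 to 0.07). It was the most abundant activator per kilobase of exon (1762 and 1745 normalised counts per kilobase). Per kilobase of the longest coding transcript Psme1 was above Psme3 (2024 and 2541 against 1950 and 1932). Psmf1, the inhibitor PI31, had 898 and 1015 reads and a ratio of -0.04 (-0.17 to 0.09). Psme2b (chromosome 11, 48945354 to 48946190, minus strand), the 1 member called lower, rests on 12 reads in the label-retaining library against 27. Its ratio was -1.01 with an interval from -2.15 to -0.0068. It is 99.3% identical to the Psme2 coding sequence, and the summed reads of both rows, 1026 and 1119, gave 0.0084 (-0.12 to 0.13). The 1 lower call therefore ended when the copies were summed. Psmc3ip, the gene that is no proteasome gene, had 270 and 280 reads and a ratio of 0.08.

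**Figure D3:**
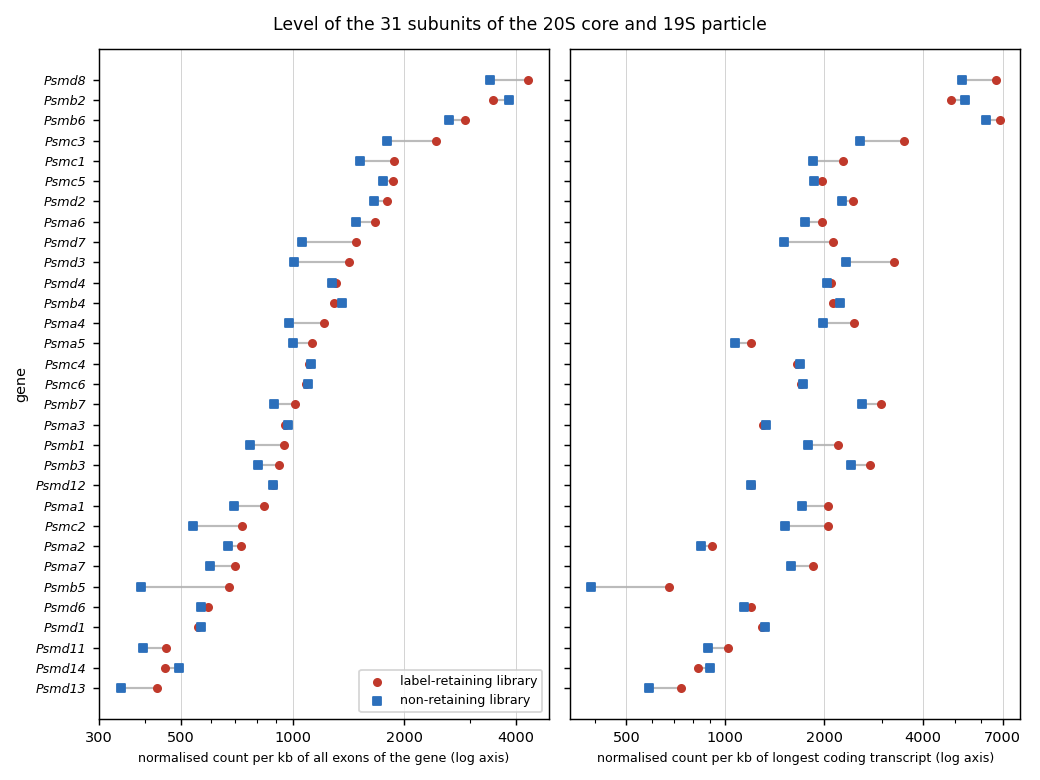
Normalised count per kilobase of the 31 subunits of the core and the 19S particle (log axes) in both libraries, per kilobase of all exons (left) and of the longest coding transcript (right). Psmd8, Psmb2 and Psmb6 are the highest on the left, and Psmb5 is the lowest on the right in both libraries.

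The order of subunits by level was nearly the same in both libraries. Across the 31 subunits of the core and the 19S particle without Psmb11, the median was 1087 normalised counts per kilobase of exon in the label-retaining library against 977. The highest was about an order of magnitude above the lowest, 11.1 times in the non-retaining library, although the assembled particle holds most of its subunits in equal numbers. Psmd8, Psmb2, Psmb6 and Psmc3 were the 4 highest in both, and Psmd13 (430 and 344) was the lowest. Pearson's r across the 31 genes was 0.970 on log2 levels, a description over genes that share a library pair, scaling and length. The order within a library depends on the length used. Per kilobase of the longest coding transcript Psmb6 was the highest (6853 and 6207), and Psmb5 was the lowest in both libraries (674 and 390), where by all exons it stood at place 26 and 30 of 31. With the reads of Gm3375 added, Psmb5 had 1055 and 655 per kilobase.

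Near-identical copies touch many of these genes. A copy with at least 90% identity over at least 50% of the coding sequence was found in the annotation for 16 of the 46 members, and for 30 none was found. For most such members the copy had no row in the table or few reads. Copies in the table moved the ratio of Psma3, Psma4, Psmd2 and Psmd11 by little when added (Psma4, 0.31 with and without Gm6542, and Psmd11, 0.20 without and 0.21 with A730017L22Rik). Among the 30 members with no copy found, the median ratio was 0.18, none was called at 2-fold and 1 was called higher at 1.5-fold.

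The immunoproteasome subunits, which replace the catalytic subunits in cells exposed to interferon and in leukocytes, stood lower in the label-retaining library for Psmb8 and Psmb9, while Psmb10 was near equality. Psmb8, the counterpart of Psmb5 (chromosome 17, 34197721 to 34201454, plus strand), had 307 reads in the label-retaining library against 817, a log2 ratio of -1.28 (-1.47 to -1.09). Psmb9, the counterpart of Psmb6, had 178 and 285 reads and a ratio of -0.54 (-0.82 to -0.27). Psmb10, the counterpart of Psmb7, had 412 and 479 reads and a ratio of -0.08 (-0.28 to 0.11). All 3 had reads in both libraries, and only the interval of Psmb10 held equality.

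Set against its standard counterpart, Psmb8 took 11.9% of the level of Psmb8 and Psmb5 together per kilobase of exon in the label-retaining library and 36.1% in the non-retaining library. Per kilobase of the longest coding transcript the shares were 21.8% and 54.0%. With the Psmb5 copy counted in, they were 7.91% and 25.1% by exons and 15.1% and 41.1% by the longest coding transcript. The shares of the other pairs were closer between the libraries: Psmb9 took 1.63% and 2.61% of its pair with Psmb6, and Psmb10 took 19.2% and 22.4% of its pair with Psmb7. Of the 8 leukocyte markers 5 were lower and 2, Cd52 and Lyz2, higher at 2-fold, and all 6 basal markers were lower. Ptprc, the gene of the leukocyte antigen CD45, had 208 reads in the label-retaining library against 6466, and Cd52 had 6818 against 2160. The part of leukocytes and basal cells in the Psmb8 difference was not tested.

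**Figure D4:**
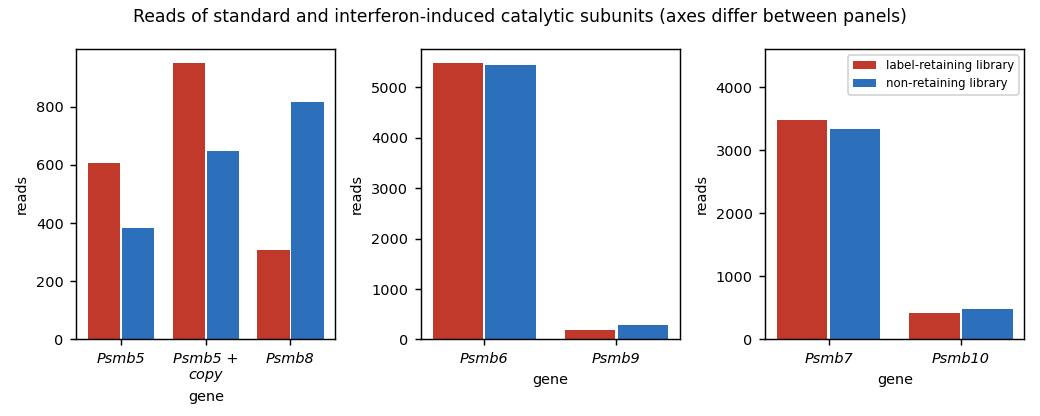
Reads of each standard catalytic subunit beside its immunoproteasome counterpart in both libraries, as bars from 0 on an axis of its own for each pair, with Psmb5 also shown with its copy Gm3375. Psmb8 has 307 reads in the label-retaining library against 817 and Psmb5 has 607 and 385, while Psmb6 and Psmb7 have nearly equal reads in both.

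Genes around the immunoproteasome did not move together. Of 8 measured genes of the path that makes and loads antigen peptides, 1 was called higher and 1 lower at 2-fold (14.5% and 19.4% of all measured genes), with a median log2 ratio of -0.18. The higher call ended when scaled on the total of all rows or on Krt8 and Krt18. B2m, the light chain of MHC class I, had 185419 reads in the label-retaining library against 92387 (1.14, 1.13 to 1.15). Irf1, an interferon-responsive transcription factor known to act on Psmb8 and Psmb9, had 2075 and 5683 reads (-1.32, -1.39 to -1.25). The peptide transporter gene Tap1 was at 685 and 1132 reads. So the transcription factor and Psmb8 were lower and the class I light chain was higher in the label-retaining library.

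Factors that bind or build the proteasome but have other names were mostly above equality on the deposited scaling, though not when scaled on Krt8 and Krt18, where their median was -0.28. Of 13 listed, 12 were measured and Paaf1 had no row. None was called at 2-fold (14.5% of all measured genes were called higher and 19.4% lower), and the median was 0.50. At 1.5-fold 4 were called higher (24.2% of all measured genes) and none lower (26.8%). When scaled on the total without the 50 most abundant genes, 1 was called higher at 2-fold (16.1% of all measured genes). Adrm1, the ubiquitin receptor RPN13 of the base, had 5376 reads in the label-retaining library against 3859 (0.61, 0.55 to 0.67). Uchl5, the deubiquitinase that Adrm1 recruits, had 760 and 764 reads (0.13, -0.02 to 0.27), and Usp14, the other deubiquitinase of the base, 2686 and 2745 (0.10, 0.02 to 0.18). The receptor and its deubiquitinase thus had ratios whose intervals did not overlap. Sem1, the smallest lid subunit, was the lowest of the list, with 2384 and 3127 reads (-0.26, -0.34 to -0.18). Pomp, the maturation factor of the core, had 2016 and 1920 reads (0.20, 0.11 to 0.29), close to the median of the core (0.18).

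The genes of the factors that regulate the proteasome genes went apart. Nfe2l1, which encodes NRF1 (chromosome 11, 96817414 to 96829968, minus strand), had 22124 reads in the label-retaining library against 23035, a log2 ratio of 0.08 (0.05 to 0.10). Nfe2l2, which encodes NRF2, the factor of the oxidative stress response, had 3989 and 20070 reads (-2.20, -2.25 to -2.15). Nfe2l3, another gene of the family, had 319 and 113 reads (1.63, 1.32 to 1.95). Of the 3, Nfe2l2 was lower, Nfe2l3 higher and Nfe2l1 near equality in the label-retaining library, while 40 of the 46 proteasome genes stayed within 0.5. Nfe2l2 took 20.5% of the level of Nfe2l2 and Nfe2l1 together per kilobase of exon in the label-retaining library against 55.5%. Of the 11 measured genes of the list, Nfe2l3 alone was called higher and Nfe2l2 alone lower at 2-fold (14.5% and 19.4% of all measured genes), and on Krt8 and Krt18 Nfe2l3 was at 0.85 and no longer called. The list's median was 0.16 and turned to -0.04 when scaled on the total of all rows.

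Of 9 measured genes of ubiquitin and its E1 enzymes, Ubb alone was called higher at 2-fold (14.5% of all measured genes), and the median of the list was -0.20. Ubb, a stress-responsive polyubiquitin gene, had 43292 reads in the label-retaining library against 21437 (1.15, 1.12 to 1.17). It holds repeats of the ubiquitin unit, so that reads within the repeats may fit more than 1 place. When scaled on the total of all rows Ubb was at 0.95 and no longer passed 2-fold, and on Krt8 and Krt18 it was at 0.36.

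Among the steps upstream of the proteasome, those at the ER had the highest ratios. Of 21 measured genes of ER-associated degradation, 10 were called higher at 2-fold (14.5% of all measured genes) and none lower (19.4%), with a median log2 ratio of 0.98. Syvn1, the ubiquitin ligase HRD1 of the ER membrane, had 12233 reads in the label-retaining library against 3003 (2.16, with an upper bound of 2.22). Herpud1, an ER stress-induced partner of HRD1, had 66669 and 16675 reads (2.13, 2.11 to 2.16), and Derl3, a derlin of the retrotranslocation channel, 5645 and 1485 (2.06, 1.98 to 2.14). The 10 higher genes ran from the mannose trimming factors Edem1 and Edem2 to the channel and the ligases Syvn1 and Rnf5. Under scaling on the total of all rows 8 of the 21 were called higher, and on Krt8 and Krt18 it was 3, with a median of 0.20, where 11.1% and 5.23% of all measured genes were called higher.

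Between the ER and the proteasome the ratios were smaller. Of 20 measured shuttle factors and partners of p97, the ATPase that extracts proteins from the ER membrane, 1 was called higher at 2-fold and none lower (14.5% and 19.4% of all measured genes), with a median of 0.40 that turned to -0.39 when scaled on Krt8 and Krt18. Zfand2a, an arsenite-inducible proteasome partner, had 5196 reads in the label-retaining library against 2684 (1.09, 1.02 to 1.15), and Vcp, the p97 gene itself, 18755 and 14890 (0.47, 0.44 to 0.50). The call of Zfand2a ended when scaled on the total of all rows or on Krt8 and Krt18. Of 20 measured cytosolic ligases and their E2 enzymes none was called in either direction, and the median was -0.02. Side by side, the median log2 ratios were 0.98 for ER-associated degradation, 0.50 for proteasome-bound factors without a Psm name, 0.40 for shuttle factors and p97, 0.18 for the 20S core, 0.16 for the regulators, 0.11 for the 19S particle, -0.02 for the cytosolic ligases, -0.18 for the antigen peptide path, -0.20 for ubiquitin and E1 genes and -0.31 for the immunoproteasome with Psmb11. No test of the difference between lists was made.

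**Figure D5:**
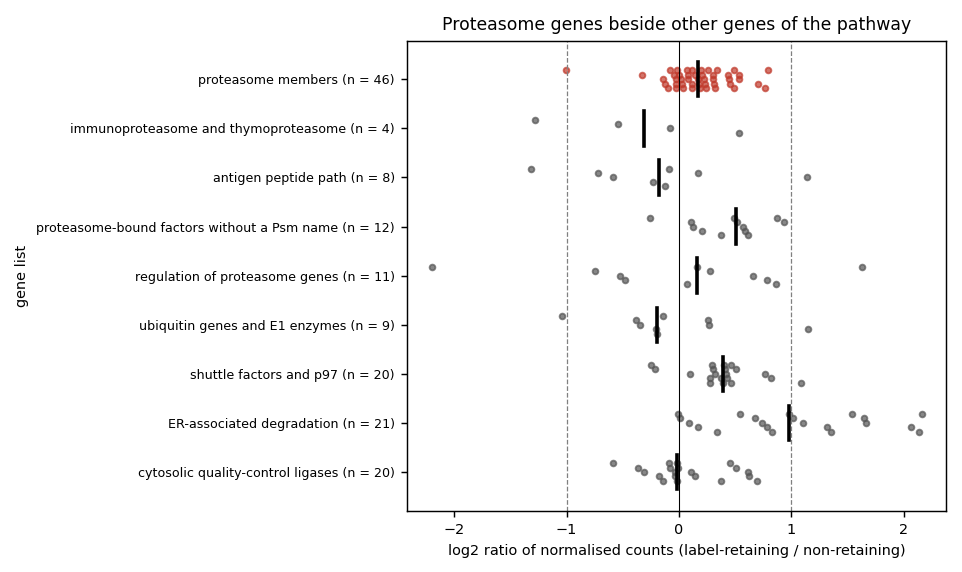
Log2 ratio (label-retaining over non-retaining) of every measured gene in each list of the ubiquitin and proteasome path, 1 point per gene, with the list's median as a line. The points of ER-associated degradation reach above 2, while the 46 proteasome genes (top) lie between -1.01 and 0.79, on the deposited scaling.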

How the data were processed

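Per the labels' protocols, libraries were prepared from total RNA with a stranded TruSeq kit. The deposited values are a normalised signal: gene read counts that the authors divided by 1 size factor per library (1.002 for label-retaining cells, 1.099 for the others), as the values themselves show. Multiplying by that factor gave whole reads for 100% of values, with a largest deviation of 5.6e-09. Per the submitters' processing notes, the build named was mm10 and the tools named were DESeq 1.16.0, HTSeq 0.6.0, TopHat2 2.0.10, CASAVA 1.8.2 and Bowtie2 2.1.0, with no role given. The annotation and the handling of strand and shared reads are not stated by the sources used here.

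Symbols and positions came from GENCODE M21 (GRCm38), matched for 18634 identifiers and not for 90. Log2 ratios (Python 3.11.15, numpy 2.4.6, scipy 1.17.1) used a pseudocount of 0.5 and the deposited scaling, and the calculation was tested on simulated data. Exact intervals rest on 50689229 and 48334265 reads, and reached 0.079 to either side of the ratio for the typical proteasome gene. Levels were divided by the length of all exons or of the longest coding transcript. Copies were sought with BLAST 2.17.0. Alternatives were other scalings, pseudocounts and minimums.

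The proteasome genes and all gene lists were chosen with earlier results of these data known. Genes were named by a rule: the 3 standard catalytic subunits, every member called by size, the highest and the lowest ratio and the highest level per kilobase of each role group, and, for each list, up to 3 called genes in each direction with a set of factors chosen by function. Other genes were named with their ratios, and the comparisons of partner subunits were chosen after the values had been seen. Some genes that the rule would name are not reported here.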

Additional observations from a re-analysis of the deposited data

How the results depend on the processing

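With other scalings (median of ratios, trimmed mean of M-values, total of all rows, total without the 50 most abundant genes, Krt8 and Krt18), a pseudocount of 5, no minimum, a minimum mean of 100, and without Psmc3ip, Psme2b and Psmb11 or without members that have a near-identical copy (the last 2 added after seeing the data), no member was called higher at 2-fold. The members' median of 0.17 turned to -0.031 on the total of all rows and to -0.61 on Krt8 and Krt18, scalings that moved the median of all genes by -0.21 and -0.80. The distance to the median of all genes stayed between 0.130 and 0.191. The 1 lower call became 0 with the median of ratios, the total without the 50 most abundant genes, the pseudocount of 5, the minimum of 100 and both reduced sets, and 2 on Krt8 and Krt18. At 1.5-fold the lower count was 0 under these settings except the pseudocount of 5, where it stayed at 1, and it was 26 on Krt8 and Krt18. The higher count of 3 became 1 on the total of all rows, 5 on the total without the 50 most abundant genes, 0 on Krt8 and Krt18, 2 at the minimum of 100 and 1 without members that have a copy. The counts without copies rest on fewer genes tested, and the cause of the others was not tested. Adding the reads of annotated copies turned Psme2b from -1.01 to 0.0084, since nearly all summed reads are those of Psme2. On Krt8 and Krt18, called genes were 5.23% higher and 41.3% lower of all measured genes, and on the total of all rows 11.1% and 23.3%, against 14.5% and 19.4% on the deposited scaling. No paired analysis was possible because each group had 1 library, and for the same reason no library could be left out. Depth limits Psmb11, Psmg3, Psmg4 and Psme2b, whose intervals were the widest.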
